A study of Mus musculus with 6 samples.

Results

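Satellite glia of the dorsal root ganglion were described from 1 single-nucleus RNA library of lumbar ganglia. Members were the 1600 nuclei that met a marker rule, of 5786 nuclei kept in that library (27.65%, 95% exact binomial interval 26.5% to 28.83%) and of 57597 barcodes in the series. A kept nucleus had at least 500 unique molecular identifiers (UMIs, one per captured RNA molecule), at least 300 genes and at most 5% mitochondrial UMIs. The rule then asked for at least 2 of Fabp7, Kcnj3, Kcnj10, Megf10, Sox2 and Bcan, for at most 1 gene of each of a neuron, a Schwann and a cycling set, and for no UMI of Pdgfra, Cdh5 or Csf1r. The neuron set was Snap25, Syt1, Rbfox3 and Elavl3, the Schwann set was Prx, Ncmap, Drp2 and Mag, and the cycling set was Mki67, Top2a, Cenpf and Knl1.

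The ganglion library pooled 4 male and 4 female C57BL/6 mice at postnatal day 14 (P14), with no treatment or engineered allele in the labels. The same series held 5 single-cell libraries of C57BL/6 sciatic nerve at P0, P7, P14, P28 and P60, which pooled 22, 21, 18, 15 and 13 animals. There was 1 library per group, so no difference has a replicate check, no p-value was computed, and every interval below is a 95% exact interval for counting error only. The ganglion sample's title says scRNAseq and its cell type is given as neuron, while its molecule is nuclear RNA and the series' design text speaks of nuclei. The median mitochondrial share of 0.063% in its kept barcodes, against 2.30% to 3.04% in the nerve libraries, also went with nuclei.

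Satellite glia are neural crest-derived cells that enclose the cell body of each sensory neuron in a thin sheath. They are known for taking up potassium and glutamate around the neuron, for gap junctions within and between sheaths, and for Fabp7, a brain lipid-binding protein that they share with radial glia and astrocytes. Schwann cells, their relatives in nerve roots and in the ganglion, ensheath or myelinate axons. The study's own question for the ganglion was which SEMA3B receptor parts sensory neurons carry, so the satellite glia were captured beside those neurons.

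Levels are CPM, the UMIs of a gene summed over the nuclei of a class per 1000000 UMIs of the class. They are not corrected for gene length and are compared here between classes, never between genes. The satellite sum held 4125677 UMIs with a median of 2365.5 UMIs and 1365.5 genes per nucleus, and the neuron nuclei (at least 2 neuron genes, 1176 nuclei) had a median of 6470 UMIs. The comparison class was the 212 Schwann nuclei (at least 2 of the 4 Schwann genes, 756346 UMIs, median 2057.5). Of these, 22 also met the neuron rule, and they held 42.08% of the class's UMIs. The main comparisons are therefore also given against 162 strict Schwann nuclei, which had at most 1 neuron, satellite or cycling gene and none of Pdgfra, Cdh5 and Csf1r (330863 UMIs, median 1829.5). Below, "Schwann nuclei" are the 212 and "strict Schwann nuclei" the 162. A gene is called higher or lower only at a ratio of at least 2 or at most 1/2 against both classes, unless another count is named.

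The rule genes describe the class and support nothing, since they chose it. Fabp7 was counted at 855.9 CPM (interval 827.9 to 884.6) in satellite glia, 152 CPM in Schwann nuclei and 63.5 CPM in neuron nuclei, and 86.38% of members had a UMI of it. Megf10, an engulfment receptor, stood at 560.6 CPM against 76.7 and 20.3 CPM in the same order. Bcan, which encodes the matrix proteoglycan brevican, stood at 207.7 CPM against 15.9 and 12.9 CPM. Sox2, a transcription factor of neural progenitors and glia, stood at 152.7 CPM, and Kcnj10, the inward rectifier that buffers potassium in glia, at 127.7 CPM. All 5 were higher in members than in either other class.

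Kcnj3, a subunit of G protein-gated potassium channels and 1 of the given markers, went against the label. It was counted at 10.66 CPM (7.749 to 14.32, 44 UMIs) in satellite glia, 126.1 CPM in neuron nuclei, 74.04 CPM in Schwann nuclei and 3.022 CPM (1 UMI) in strict Schwann nuclei. Only 42 members (2.625%) had a UMI of it, against 33.25% of the deeper neuron nuclei. The name satellite glia therefore rests here on the other 4 given markers and on Sox2.

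**Figure D1:**
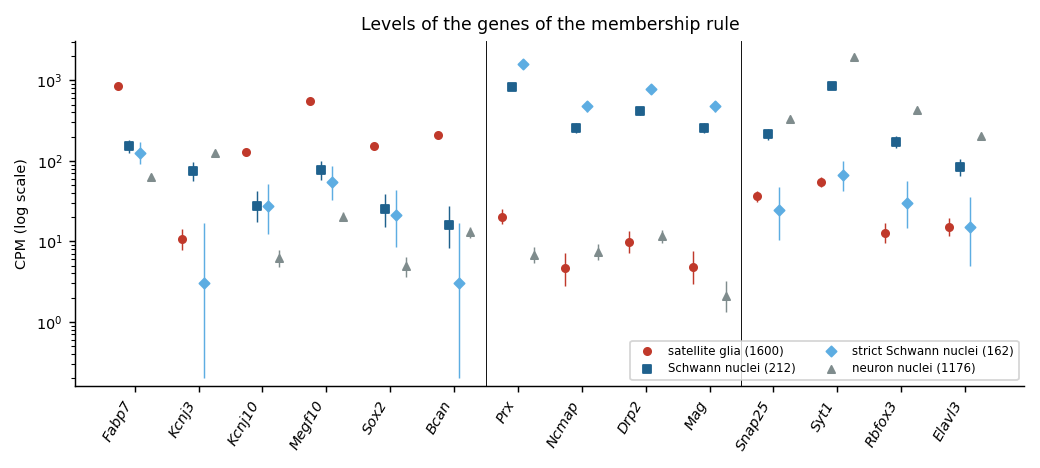
CPM on a log axis of the 6 satellite, 4 Schwann and 4 neuron genes of the rule (left to right, parted by lines) in 4 classes of ganglion nuclei; bars are 95% counting intervals and reach the bottom where the lower bound is near 0. Fabp7, Kcnj10, Megf10, Sox2 and Bcan are highest in satellite glia, while Kcnj3 is highest in neuron nuclei (126.1 CPM against 10.66 CPM).

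More members held 2 of the satellite genes than any higher number. Exactly 2 of the 6 satellite genes were detected in 872 members, 3 in 530, 4 in 173, 5 in 24 and all 6 in 1 member. A neuron gene was present in 424 members, a Schwann gene in 145 and a cycling gene in 69. Just outside the threshold lay 1093 nuclei that met all other criteria but had only 1 satellite gene, with a median depth of 1426 UMIs against 2014.5 in the members with exactly 2. For Ncam2, a gene outside the rule, the level was 897.6 CPM in nuclei with no satellite gene, 2273.8 CPM with 1, 3313 CPM with 2 and 3778.6 CPM with 3.

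An unsupervised grouping of all kept nuclei, made without the rule genes, placed 1429 members (89.31%) in 2 of 26 clusters. The same clusters took 675 of the 1093 nuclei with 1 satellite gene and 252 of the 1102 with none. They also held 18 Schwann and 64 neuron nuclei, while another single cluster held 165 of the 212 Schwann nuclei. Nuclei outside the rule thus grouped with its members. Of the members elsewhere, 56 fell in a cluster with Scn7a at 1806.5 CPM. Scn7a encodes a sodium channel of non-myelinating Schwann cells and of neurons.

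Genes counted most often in satellite glia, apart from mitochondrial genes, included Malat1, Csmd1, Apoe, Adgrb3, Rn18s-rs5, Mir99ahg, Ctnnd2, Ncam2 and Slc35f1. They are named by their number of UMIs, which grows with gene length. Apoe encodes a lipid carrier that glia secrete. It was counted at 8194.5 CPM (8107.4 to 8282.4) in satellite glia, 2131.3 CPM in Schwann nuclei, 2644.6 CPM in strict Schwann nuclei and 1022.2 CPM in neuron nuclei. Adgrb3, an adhesion G protein-coupled receptor, stood at 4635.1 CPM against 777.4, 266 and 388.5 CPM in the same order. Both mRNAs were more frequent in satellite glia than in every other class compared, whereas Malat1, a nuclear RNA, differed by 1.15-fold (1.142 to 1.157) from Schwann and 1.18-fold from strict Schwann nuclei.

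Across the 10273 genes with at least 50 UMIs over both sums, rule and mitochondrial genes left out, 1301 (12.7%) were at least 2-fold higher in satellite glia than in Schwann nuclei and 1114 (10.8%) at least 2-fold lower. Against the strict Schwann nuclei the counts were 1560 of 9797 genes (15.9%) higher and 971 (9.91%) lower. These ratios are descriptions, since the counts of the same nuclei chose both classes. Both comparisons shared 982 higher genes (10.0% of 9797) and 422 lower genes (4.31%). These last shares, 10.0% and 4.31%, are the background for each list count below. Since 50 UMIs correspond to 12.12 CPM in satellite glia and 66.11 CPM in Schwann nuclei, a low gene passed the filter more easily through satellite glia. Among the 4605 genes with at least 200 UMIs, 615 (13.4%) were higher and 434 (9.42%) lower than in the 212 Schwann nuclei.

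The 15 genes that stood highest had products of several kinds. Tfap2a (AP-2 alpha), a transcription factor of the neural crest, was counted 301 times in satellite glia (72.96 CPM, 64.95 to 81.68), 2 times in Schwann nuclei and once in strict Schwann nuclei. The ratios were 27.6 (7.572 to 228.9) and 24.1 (4.3 to 956.6), so their size is poorly fixed. Entpd1 (CD39), which breaks down extracellular ATP, stood at 175.5 CPM against 13.22 and 6.045 CPM, and a UMI was found in 14.82% of members and 1.899% of neuron nuclei once every nucleus was thinned to 1000 UMIs. Shank2, a scaffold protein of synapses, stood at 529.9 CPM against 58.17 and 33.25 CPM. Hmcn1, which encodes the matrix protein hemicentin-1, stood at 671.6 CPM against 81.97 and 45.34 CPM.

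Ncam2, a cell adhesion molecule, stood at 3584.4 CPM against 519.6 CPM in Schwann, 241.8 CPM in strict Schwann and 365.8 CPM in neuron nuclei. It was found in 90.32% of thinned members, 22.11% of thinned Schwann nuclei and 25.05% of thinned neuron nuclei (94.19% and 53.83% of members and neuron nuclei before thinning). Ptprz1, a receptor phosphatase that binds chondroitin sulfate chains and pleiotrophin, stood at 1569.4 CPM against 232.7, 102.8 and 111.7 CPM. Adamts17, a secreted protease, Slc43a3, a purine base transporter, and the long non-coding RNA Morrbid were the other leading genes with known products. The remaining 6 of the 15 leading genes carry only clone or model names, and 1 of them, 8030451A03Rik, had no UMI in either Schwann class. With 3 counts over the class set as a floor, it was 7.76-fold and 3.40-fold higher. The intervals of these ratios begin at 6.22 and 2.721, so the floor values are not lower bounds.

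Notch signalling passes between touching cells: ligands such as Jag1 bind Notch receptors, the freed receptor domain joins Rbpj and Maml co-activators, and genes such as Hes1, Hes5, Hey2 and Nrarp are switched on. It keeps many glial and progenitor cells undifferentiated. Of 20 genes listed for the pathway, 16 had enough UMIs, 11 were higher in satellite glia and 2 lower, beside 10.0% and 4.31% of all genes. The count is a description, since some of the 11, such as Hey1, Notch3 and Hes1, passed the filter mainly through satellite glia. Hey1 had 57 UMIs there, against 2 in Schwann and 1 in strict Schwann nuclei. Its strict ratio of 4.571 has an interval (0.7881 to 183.7) that includes 1. The list's median log2 ratio was 2.11 against Schwann nuclei and 2.13 against strict Schwann nuclei, beside 0.04 and -0.04 over all genes tested.

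Among the receptors, Notch1 stood at 168.2 CPM (155.9 to 181.2) in satellite glia, 33.05 CPM in Schwann nuclei, 21.16 CPM in strict Schwann nuclei and 10.88 CPM in neuron nuclei. Notch3 stood at 29.57 CPM and was counted 3 times in Schwann nuclei and not at all in strict ones. Against the strict ones it was 3.26-fold higher with the floor of 3 counts, with an interval from 2.612. Notch2, at 89.92 CPM, was within 2-fold of both Schwann classes. The ligand Jag1 stood at 261.5 CPM against 42.31 and 21.16 CPM. Dner, a non-classical Notch ligand, went the other way, at 11.39 CPM against 51.56 and 27.2 CPM, with 106.7 CPM in neuron nuclei. Notch1, Notch3 and Jag1 were thus more frequent in satellite glia than in both Schwann classes, Notch2 was not called and Dner was lower.

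Of the target genes, Hey2 stood at 287 CPM (270.9 to 303.8) against 35.7 CPM in Schwann, 6.045 CPM in strict Schwann and 18.62 CPM in neuron nuclei, which is 8.04-fold (5.497 to 12.25) and 47.5-fold (13.11 to 392.5) higher. Hes1 was counted 211 times in satellite glia, 6 times in Schwann nuclei and never in strict Schwann nuclei. It was 6.45-fold higher, and 5.64-fold with the floor of 3 counts, the latter with an interval from 4.547. Hes5 stood at 41.93 CPM against 9.255 and 3.022 CPM, the last from 1 UMI, with ratios of 4.53 (2.153 to 11.44) and 13.9 (2.457 to 551.1). Nrarp, a feedback inhibitor, stood at 40.96 CPM against 7.933 CPM and 0 (4.52-fold higher than the latter with the floor of 3 counts). In the other direction, the co-activator Maml3 was 3.92-fold (3.426 to 4.482) and 5.74-fold (4.906 to 6.693) lower, whereas its relative Maml2 was 4.10-fold and 7.71-fold higher. Rbpj itself, at 72.72 CPM, differed by less than 2-fold from both classes.

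The promoter windows of targets that were higher together are shown because Rbpj binds DNA through the core TGGGAA. Windows of 300 bases, 250 before to 50 after the start, come from RefSeq (GRCm38.p6), whose table held 17 of the 20 listed genes. Capitals mark TGGGAA or its reverse complement TTCCCA, each strand is the gene's own, 5′ to 3′, and no other motif was searched.
Hes5: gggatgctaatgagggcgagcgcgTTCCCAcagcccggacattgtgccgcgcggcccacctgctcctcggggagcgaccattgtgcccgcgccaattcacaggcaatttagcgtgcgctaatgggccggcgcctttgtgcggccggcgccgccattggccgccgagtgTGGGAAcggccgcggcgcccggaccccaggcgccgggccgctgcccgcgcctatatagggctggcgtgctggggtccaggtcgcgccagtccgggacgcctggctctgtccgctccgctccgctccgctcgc
Hey2: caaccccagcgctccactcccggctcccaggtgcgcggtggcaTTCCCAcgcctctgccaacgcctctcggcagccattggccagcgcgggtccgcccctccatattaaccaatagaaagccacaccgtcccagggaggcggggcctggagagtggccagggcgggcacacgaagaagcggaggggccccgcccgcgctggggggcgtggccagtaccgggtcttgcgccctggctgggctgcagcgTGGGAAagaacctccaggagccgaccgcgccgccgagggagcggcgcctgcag
Nrarp: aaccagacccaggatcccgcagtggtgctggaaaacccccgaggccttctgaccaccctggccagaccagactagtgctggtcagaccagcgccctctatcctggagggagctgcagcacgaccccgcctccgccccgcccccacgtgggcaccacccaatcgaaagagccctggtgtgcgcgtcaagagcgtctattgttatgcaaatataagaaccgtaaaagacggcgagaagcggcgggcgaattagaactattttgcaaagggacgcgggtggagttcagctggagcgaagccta
The Hes5 window lies at chr4:154960673-154960972 on the plus strand, the Hey2 window at chr10:30842734-30843033 on the minus strand and the Nrarp window at chr2:25180508-25180807 on the plus strand. Hes5 and Hey2 each hold the core in both orientations, with first bases 226 and 82 bases before the start in Hes5 and 207 and 3 bases before it in Hey2, and Nrarp holds no match. Of all 32851 windows in the table, 25.6% hold a match and 1.81% hold both orientations. Among the 17 listed genes, which have 21 windows, 6 have a match (Hes5, Hey2, Lfng, Maml2, Maml3 and Rbpj) and 4 have both orientations. These last counts are of genes, whereas the shares are of windows. The letters alone describe the windows and show no binding.

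Myelin genes went the other way, with the reservation that 4 of them had been used to define both classes and stay out of the counts. Of 22 other myelin genes, 20 had enough UMIs, none was higher in satellite glia and 12 were lower against both classes, with median log2 ratios of -2.67 and -3.59. Pmp22, a membrane protein of compact myelin, stood at 171.4 CPM (159 to 184.5) in satellite glia, 2496.2 CPM in Schwann, 4784.5 CPM in strict Schwann and 110.7 CPM in neuron nuclei. It was 14.6-fold (13.35 to 15.9) and 27.9-fold (25.53 to 30.55) lower than in the Schwann classes. Mbp, the myelin basic protein gene, stood at 252.6 CPM against 2436.7, 4612.2 and 54.2 CPM, 9.65-fold (8.937 to 10.42) and 18.3-fold (16.87 to 19.78) lower. Fa2h, which makes the hydroxylated fatty acids of myelin lipids, was counted 15 times in satellite glia and 216 times in Schwann nuclei, 78.6-fold lower and 153-fold lower than in strict ones. Gldn, which gathers sodium channels at nodes, was 112-fold and 214-fold lower, with 6 UMIs in satellite glia.

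Sox10, the transcription factor of neural crest glia, did not follow the myelin genes. It stood at 487.7 CPM in satellite glia, 329.2 CPM in Schwann, 535 CPM in strict Schwann and 25.17 CPM in neuron nuclei. Mbp was found in 20.57% of thinned members and 7.324% of thinned neuron nuclei, which should lack it (40.06% and 26.36% before thinning). How much of the Mbp of satellite glia is free RNA was not tested.

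**Figure D2:**
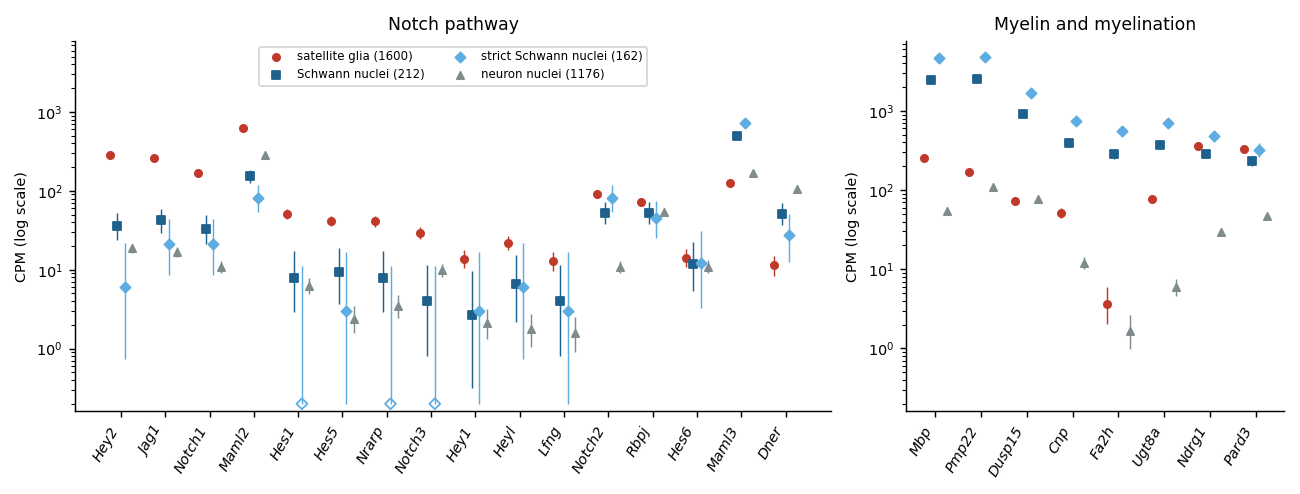
CPM on a log axis of the 16 Notch pathway genes with enough UMIs (left) and of 8 myelin genes (right) in 4 classes of ganglion nuclei; bars are 95% counting intervals and open symbols at the bottom mark classes with no UMI. Hey2, Jag1 and Notch1 are highest in satellite glia, and Mbp and Pmp22 are highest in the strict Schwann nuclei.

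The 15 genes lowest in satellite glia against Schwann nuclei were also lower against strict Schwann nuclei, apart from Efcc1, Htr1f and Pde4c. Efcc1 was counted 2 times in satellite glia against 48 and 37 times, with too few UMIs for the strict comparison to count. Slc36a2, a small amino acid transporter, was counted 7 times in satellite glia and 335 times in Schwann nuclei, 261-fold (125.3 to 654.3) lower and 520-fold (249.3 to 1305.2) lower than in strict ones. Emid1, a secreted matrix protein, was 119.5-fold (77.24 to 194.9) and 232-fold lower, and Nfasc, an adhesion molecule of the paranode and node, 52.5-fold and 97.4-fold lower. Htr1f, a serotonin receptor, stood at 27.15 CPM in satellite glia, 1026 CPM in Schwann nuclei and 920.2 CPM in neuron nuclei, but at 24.18 CPM in strict Schwann nuclei. Pde4c behaved likewise, with 182.5 CPM in Schwann and 3.022 CPM in strict Schwann nuclei. Htr1f was not 2-fold lower than in strict Schwann nuclei, and Pde4c, with 1 UMI in them, had too few UMIs for that comparison to count.

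**Figure D3:**
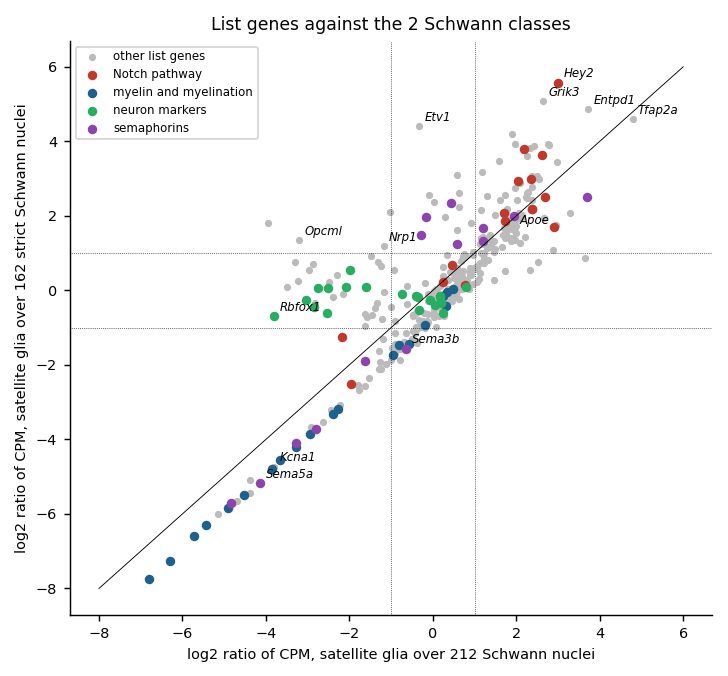
Log2 ratio of CPM of list genes in satellite glia over the 212 Schwann nuclei (x axis) and over the 162 strict Schwann nuclei (y axis); the line marks equal ratios, dotted lines mark 2-fold, and a gene with no UMI is placed with 3 counts. Most Notch genes lie at upper right and most myelin genes at lower left, and 9 neuron markers, Rbfox1 among them, lie left of the 2-fold line on the x axis but within 2-fold on the y axis.

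Glial transcription factors were described from a list of 32 genes, of which 23 could be compared with both classes, with 11 higher and 2 lower (Pou3f1 and Id2), beside 10.0% and 4.31% of all genes (median log2 ratio 0.88 and 1.11). Sox5 and Sox6, partners of Sox10 in glia, stood at 383.9 CPM against 74.04 and 45.34 CPM and at 531.3 CPM against 112.4 and 93.69 CPM. Pou3f2 stood at 99.38 CPM against 25.12 and 30.22 CPM. Its relative Pou3f1, which promotes myelination, was the opposite, with 20 UMIs (4.848 CPM) against 173.2 and 311.3 CPM, 35.7-fold (22.22 to 60.41) and 64.2-fold lower. Egr2 (Krox20), the master regulator of peripheral myelin genes, stood at 2.666 CPM against 55.53 and 114.9 CPM, with too few UMIs for the strict comparison to count.

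Potassium and ion handling, the textbook role of satellite glia, had members in both directions. Of 24 listed genes, 17 could be compared with both classes, and 4 were higher and 2 lower, beside 10.0% and 4.31% of all genes (median log2 ratio 0.48 and 0.40). Kcna6, a voltage-gated potassium channel, stood at 224 CPM against 63.46 and 60.45 CPM, and Atp1b2, the glial subunit of the sodium pump, at 33.69 CPM against 10.58 and 12.09 CPM. Aqp4, the astrocyte water channel, was counted 95 times, against 4 and 2 times. Kcna1, a juxtaparanodal potassium channel, was lower, at 49.45 CPM against 690.2 and 1311.7 CPM.

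Glutamate and GABA handling had 18 listed genes, 8 with enough UMIs, of which 5 were higher and none lower against both classes. The 5 were Slc1a3, Slc1a4, Slc1a5, Abat and Aldh9a1, the last 2 being enzymes of GABA handling. Against strict Schwann nuclei, Abat (2.022), Slc1a5 (2.041) and Aldh9a1 (2.235) were just past 2-fold. Slc1a3 (GLAST), the astrocyte glutamate transporter, stood at 84.83 CPM (76.18 to 94.2) against 23.8, 27.2 and 10.79 CPM in Schwann, strict Schwann and neuron nuclei. The neutral amino acid carriers Slc1a4 and Slc1a5 stood at 92.83 and 135.7 CPM against 23.8 and 48.92 CPM in Schwann and 6.045 and 66.49 CPM in strict Schwann nuclei. Glul (glutamine synthetase), often used as a satellite glia marker, stood at 92.35 CPM against 47.6 and 81.6 CPM, ratios of 1.94 (1.377 to 2.812) and 1.13 (0.7655 to 1.74). The interval of Glul against strict Schwann nuclei includes 1, and that of Slc1a3 (1.624 to 6.878) does not.

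Gap junction genes had 1 of 6 comparable genes higher and 2 lower, too few to read against 10.0% and 4.31% of all genes. Gja1 (connexin 43), the connexin of satellite glia sheaths and astrocytes, was counted 159 times (38.54 CPM) against 9 and 4 times, 3.24-fold (1.664 to 7.213) and 3.19-fold (1.221 to 11.84) higher. Gjc3 (connexin 29), a connexin of myelinating glia, was 3.43-fold and 6.37-fold lower. Purinergic genes had 2 of 6 higher and none lower. Entpd2, like Entpd1 an enzyme that removes extracellular ATP, stood at 101.8 CPM against 21.15 and 18.13 CPM. The ATP receptor P2rx7 stood at 128.2 CPM against 93.87 and 157.2 CPM, inside 2-fold of both.

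A list of astrocyte genes had 9 of 17 comparable genes higher and 2 lower. Acsbg1, a fatty acid activating enzyme, stood at 262.3 CPM against 33.05 and 24.18 CPM, and Ttyh1, a membrane channel protein of glia, at 526 CPM against 146.8 and 166.2 CPM. The metallothioneins Mt1 and Mt2 were the lower ones, Mt1 at 82.65 CPM against 178.5 and 323.4 CPM. Engulfment and lipid transport genes had 4 of 16 higher: Apoe, the cholesterol exporter Abca1, the receptor tyrosine kinase Axl and the endocytic receptor Lrp2. Axl was counted 185 times, against 8 and 2 times. Elmo1, which acts inside cells that engulf, was 7.59-fold and 12.6-fold lower. Of 26 sterol and fatty acid synthesis genes, 3 were higher (Nsdhl, Mvd and Dhcr7) and none lower, a share near the 10.0% of all genes.

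Genes known from Remak Schwann cells, the glia of small unmyelinated axons, were frequent in satellite glia. Of 18 comparable genes 13 were higher and none lower, with median log2 ratios of 1.29 and 1.98. Ncam1 stood at 2302.2 CPM against 483.9 and 190.4 CPM. Grik3, a kainate receptor subunit, stood at 305.4 CPM against 48.92 CPM and no UMI in strict Schwann nuclei. It was 6.24-fold higher, and 33.7-fold with the floor of 3 counts, the latter with an interval from 27.35. Chl1, an adhesion molecule of the L1 family, stood at 332.3 CPM against 88.58 and 18.13 CPM. Scn7a did not share this, at 97.44 CPM against 194.4 CPM in Schwann, 133 CPM in strict Schwann and 378.2 CPM in neuron nuclei. Since the Schwann classes were chosen by myelin genes, they hold the myelinating kind, and these values set satellite glia against that kind.

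Semaphorins guide growing axons, the class 3 members being secreted ligands of neuropilin and plexin receptors. Of 20 listed, 13 were comparable with both classes, and 4 were higher and 4 lower. The median log2 ratio changed sign with the Schwann class, from -0.21 to 1.33 against strict nuclei. Sema3b, the study's protein, was counted 256 times in satellite glia (62.05 CPM, 54.68 to 70.14), at 96.52 CPM in Schwann nuclei, 184.4 CPM in strict Schwann nuclei and 7.559 CPM in neuron nuclei. It was 1.56-fold (1.182 to 2.025) and 2.97-fold (2.209 to 3.942) lower than in the Schwann classes. A UMI of it was found in 5.48% of thinned members and 1.266% of thinned neuron nuclei. Its level in satellite glia thus lay between those of neuron and Schwann nuclei, and the part of free RNA was not tested.

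Some other semaphorins were more frequent in satellite glia than in either Schwann class. Sema6a, a transmembrane semaphorin, stood at 364.8 CPM against 95.19 and 90.67 CPM. Sema3c, a secreted one, stood at 192.7 CPM against 83.3 and 60.45 CPM. Sema4a was counted 141 times, against 2 times in each Schwann class, with ratios of 12.9 (3.512 to 107.8) and 5.65 (1.536 to 47.14). Sema5a went the other way, at 33.45 CPM against 587 and 1215 CPM, 17.5-fold (14.47 to 21.4) and 36.3-fold lower. The sparser Sema6c was counted 9 times against 47 and 38 times, with too few UMIs for the strict comparison to count, so it is not among the 4 lower.

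Of the receptors described, Nrp1 changed direction with the Schwann class. Nrp1 (neuropilin 1) stood at 68.35 CPM in satellite glia, 154.7 CPM in Schwann nuclei and 158.1 CPM in neuron nuclei, but at 30.22 CPM in strict Schwann nuclei, so satellite glia were 2.26-fold lower than the one and 2.26-fold higher (1.212 to 4.768) than the other. Plxna4 stood at 31.03 CPM against 138.8 and 33.25 CPM, with 329.2 CPM in neuron nuclei. Nrp2 stood at 125.8 CPM against 136.2 and 193.4 CPM, under 2-fold from both, with 35.12 CPM in neuron nuclei. Of 13 comparable receptor genes, 2 were higher (Chl1 and Itga1) and 1 lower (Plxnb1, 17.21 CPM against 52.89 and 102.8 CPM) against both classes, shares near the 10.0% and 4.31% of all genes.

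Adhesion molecules of neuron-glia contact had 7 of 29 higher and 1 lower, and their median log2 ratio was -0.31 against Schwann and 1.03 against strict Schwann nuclei. Lrrc4c (netrin-G ligand 1) stood at 2239.6 CPM against 394 and 266 CPM, and Cdh19, a cadherin of neural crest glia, at 886.6 CPM against 263.1 and 308.3 CPM. Lsamp, which neurons also carry at 5442.3 CPM, stood at 2693.1 CPM against 1794.2 and 314.3 CPM, above 2-fold only against the strict nuclei. Trophic genes had 5 of 21 higher and 2 lower, beside 10.0% and 4.31% of all genes. Ntrk2, the BDNF receptor, stood at 495.4 CPM against 104.4 and 81.6 CPM, Fgfr1 at 646.2 CPM against 111.1 and 81.6 CPM, and the secreted factor Ptn (pleiotrophin) at 889.3 CPM against 182.5 and 142.1 CPM. Gfra1, a GDNF co-receptor, was 27.6-fold (22.75 to 33.77) and 52.5-fold lower.

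In the basal lamina list, 6 of 25 were higher and 4 lower, and the median log2 ratio was 0.28 against Schwann and -0.11 against strict Schwann nuclei. Col28a1, a collagen of peripheral glia, stood at 941.2 CPM against 239.3 and 253.9 CPM, and the integrin subunit Itga2 at 90.89 CPM against 22.48 and 24.18 CPM. Utrn (utrophin), which links the Schwann membrane to laminin, was 3.44-fold and 5.84-fold lower. Immediate early genes, which cells switch on within minutes of a stimulus, were listed together with heat shock genes. Of 13 comparable genes of this joint list, 8 were higher and none lower. The 8 were Fos, Fosb, Jun, Egr1, Egr3, Ier2, Nr4a1 and Zfp36. Fos stood at 210.1 CPM (196.4 to 224.6) against 47.6, 51.38 and 15.21 CPM in Schwann, strict Schwann and neuron nuclei, and Egr1 at 178.4 CPM against 33.05, 12.09 and 18.9 CPM. The heat shock genes Hspa8, Hspb1 and Dnajb1 were not higher, Hspa8 at 131.4 CPM against 129.6 and 214.6 CPM. The labels describe a warm enzymatic digestion of the tissue, and its part in the immediate early genes was not tested.

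Other lists held few comparable genes. Of 4 matrix genes, Ptprz1 and Tnc were higher. None of 3 lipid-binding genes was higher or lower, and of 8 interferon genes C4b and Tlr3 were higher by their point ratios. Each had 2 UMIs in strict Schwann nuclei, against 64 and 84 in satellite glia. The intervals of their strict ratios, 0.682 to 21.65 and 0.9039 to 28.27, include 1. Of 7 cell cycle genes, Mcm6 was higher and Cdkn1a and Cdkn1b were lower, the last at 33.45 CPM against 206.3 and 386.9 CPM. Mcm6 had 85 UMIs in satellite glia, against 3 in Schwann and 1 in strict Schwann nuclei. The interval of its strict ratio, 1.191 to 272.4, is wide.

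RNA of other cell types was present in the satellite sum. Neuron markers (22 genes) summed to 2559.8 CPM in satellite glia, 8196 CPM in Schwann, 3131.2 CPM in strict Schwann and 16306.8 CPM in neuron nuclei, and none was at 0 in members. Of 21 comparable neuron markers none was higher or lower against both Schwann classes, although 9 were lower against the 212. Nefl, a neurofilament mRNA, stood at 212.3 CPM in satellite glia, 204.9 CPM in Schwann, 281.1 CPM in strict Schwann and 157.6 CPM in neuron nuclei, so it was not highest in neuron nuclei. Mesenchymal markers summed to 774.9 CPM in members against 897.7, 1429.6 and 352.1 CPM. Macrophage markers summed to 161.2 CPM against 115, 96.72 and 153.8 CPM. Mural markers summed to 367 CPM against 1693.7, 335.5 and 3937.1 CPM, and no endothelial marker had enough UMIs to compare. Their part in the comparisons was not tested.

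The members were grouped again among themselves without the rule genes, which gave 5 sub-clusters, described here with no test since the same counts formed them. Sub-clusters 1 and 2, with 515 and 370 nuclei, lay almost wholly in the 2 main library clusters (98.64% and 97.57%). Sub-cluster 1 was led by Grin2a, a glutamate receptor subunit, at 105.5 CPM against 32.85 CPM in the other members, by the nicotinic receptor gene Chrna7 and by the immediate early gene Fosb (222.1 against 103.4 CPM). Sub-cluster 2 was led by Anks1b at 635.9 against 134.9 CPM, by the FGF-responsive factor Etv4 and by Megf11, a relative of Megf10, at 215.3 against 65.13 CPM. Fabp7 stood at 802.6 and 700.4 CPM and Ncam2 at 4089.1 and 3841.9 CPM in these sub-clusters.

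Sub-cluster 3 held 551 shallower nuclei with a median of 1523 UMIs, against 2998 in sub-cluster 1. Apoe stood at 14016.8 CPM there, against 6828.9 and 6623.6 CPM in sub-clusters 1 and 2, and Fabp7 at 1270.2 CPM. Its leading genes were Ppil6, Mt1, Ptgds, mt-Nd5, Hes5 and the haemoglobin gene Hbb-bs. Hes5 stood at 83.03 CPM there, against 41.73 and 20.89 CPM in sub-clusters 1 and 2, while Hey2 stood at 298.7, 314.8 and 279.8 CPM in sub-clusters 3, 1 and 2. Depth and these genes moved together, and the part of depth or of free RNA was not tested.

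The 2 smaller sub-clusters departed from the class. Sub-cluster 0, with 123 nuclei, had Scn7a at 714.2 CPM against 42.5 CPM in the other members, Kcna1 at 361.5 CPM and the neuronal genes Snhg11 and Rbfox1 at 711.2 and 548.2 CPM. Only 40.65% of it lay in the main library clusters. Sub-cluster 4, with 41 nuclei, had Egfr at 391.2 CPM against 2.253 CPM, Slc47a1 at 513.9 CPM, Ebf2 at 513.9 CPM and Ptprc, the pan-leukocyte gene CD45, at 375.8 CPM. Its leading genes were mesenchymal rather than glial, 2.439% of it lay in the main clusters, and 56.1% of it was among the nuclei at or above the top 8% of doublet scores (9.229% of all kept nuclei, with ties), against 8.711% to 12.2% of the other sub-clusters. Ptprc, Ebf2 and Itgbl1 stood at 1.081, 8.378 and 6.216 CPM in the members of the main clusters and at 117.5, 164.5 and 202.1 CPM in the other members. Against Schwann nuclei, members of the main clusters alone had 1237 (12.6%) of 9853 genes higher and 1117 (11.3%) lower, sharing 1200 and 1030 with all members.

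**Figure D4:**
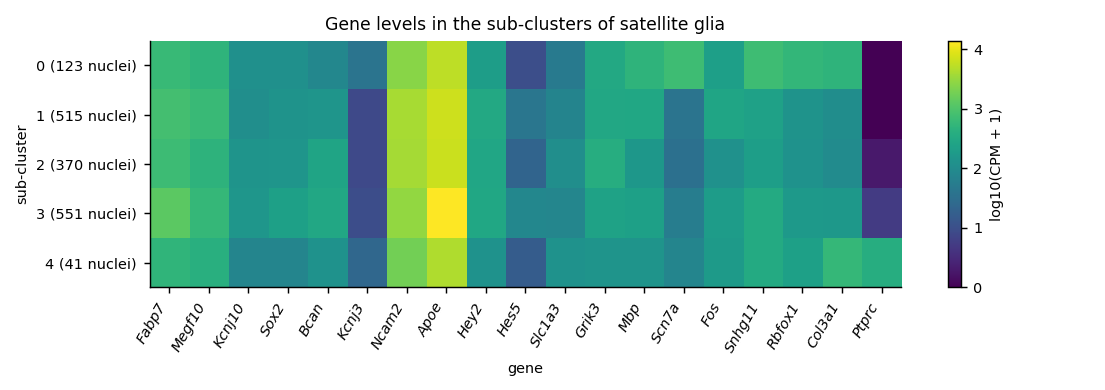
Levels as log10(CPM + 1) of 19 genes in the 5 sub-clusters of the 1600 satellite glia, with the number of nuclei in brackets. Sub-clusters 1, 2 and 3 share high Ncam2, sub-cluster 3 has the highest Apoe (14016.8 CPM), sub-cluster 0 the highest Scn7a (714.2 CPM) and sub-cluster 4 the highest Ptprc (375.8 CPM).

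The sciatic nerve holds no sensory cell bodies, so the same rule was put to its cells, with up to 20% mitochondrial UMIs allowed. It was met by 647 of 9927 cells at P0 (6.518%, 6.04% to 7.021%), 558 of 11222 at P7 (4.972%), 118 of 9038 at P14 (1.306%), 81 of 13597 at P28 (0.5957%) and 90 of 7189 at P60 (1.252%). Nerve cells thus also met the rule. Cells and nuclei differ in RNA content, so the shares stand side by side without a ratio. The genes through which cells met the rule differed from the ganglion. Sox2 had a UMI in 88.41% to 95.06% of them and Kcnj10 in 57.78% to 72.03%, against 32.12% and 26.5% of satellite glia. Fabp7 had one in 7.885% to 31.11%, against 86.38%, and Bcan in 0.7728% at P0 and in none at later ages, against 39.25%.

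Some genes of satellite glia had low CPM in these nerve cells and others did not. The nerve values come from cells and the ganglion values from nuclei. At P14 they were counted with Cell Ranger 5.0.1 and 7.1.0, in that order. How far assay and counting set these levels was not tested, so they also stand side by side without a ratio. At P14, Hey2 stood at 6.977 CPM in the nerve cells and 287 CPM in satellite glia, Ncam2 at 52.32 and 3584.4 CPM, Shank2 at 0 and 529.9 CPM and Entpd1 at 6.977 and 175.5 CPM. Notch1 stood at 144.8 and 168.2 CPM, Hes1 at 99.42 and 51.14 CPM and Slc43a3 at 176.2 and 309.3 CPM. Apoe was high in both, at 4315 and 8194.5 CPM, and Sox10 alike at 518 and 487.7 CPM. Sema3b stood at 252.1 CPM at P0, 622.7 CPM at P14 and 559 CPM at P60 in them. Megf10 had a UMI in 52.7% and 56.99% of these cells at P0 and P7 and in 30.86% to 35.56% later. The nerve cells thus met the rule mainly with Sox2, Kcnj10 and Megf10, and Bcan was at or near 0 in them. Hey2 ranged in them from 0 at P28 to 14.23 CPM (7 UMIs) at P60. From 10 to 19 barcodes of each nerve library also occurred among the 5871 of the ganglion.

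**Figure D5:**
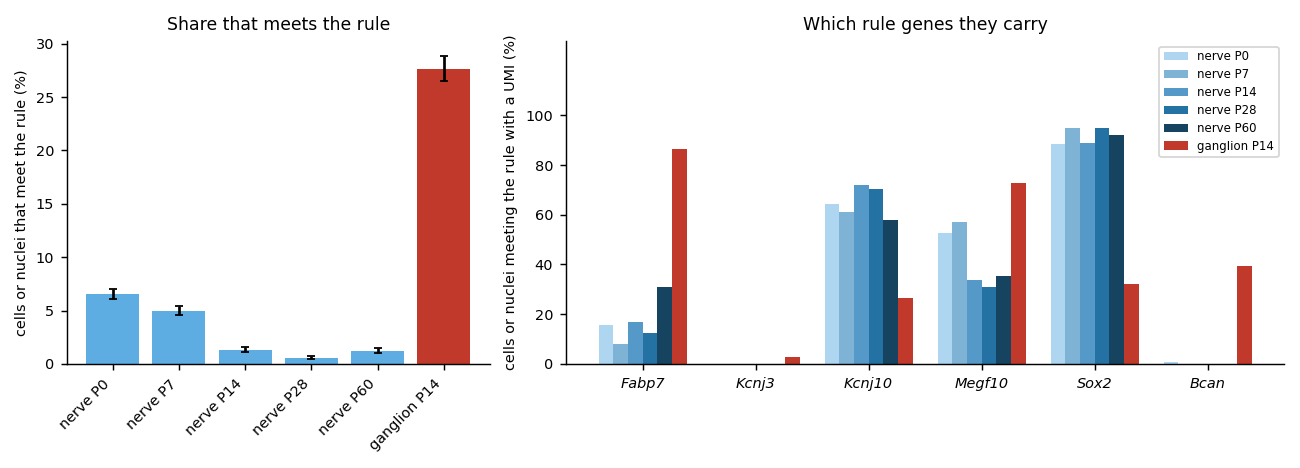
Left, percent of kept cells (nerve, 5 ages) or nuclei (ganglion) that met the satellite rule, with 95% binomial intervals; right, percent of those with a UMI of each of the 6 satellite genes. The ganglion stands at 27.65% and carries Fabp7 and Bcan, whereas nerve cells stand at 0.5957% to 6.518% and carry mainly Sox2, Kcnj10 and Megf10.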

How the data were processed

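The ganglion library (5871 barcodes, 20845972 UMIs) and 5 nerve libraries (60763221 to 101441907 UMIs) were read as deposited UMI counts per gene and barcode, with no normalization. Counts were made with Cell Ranger 7.1.0 (ganglion), 7.0.0 (P7) and 5.0.1 (the other 4), per the file headers. The submitters' processing notes name Seurat and the build mm9. No label names the authors' own cell filters.

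Nuclei were chosen by the marker rule, counts of each class were summed in Python 3.11.15 (numpy 2.4.6) and divided by the class total, and exact 95% intervals came from scipy 1.17.1. Genes with at least 50 UMIs over both sums were compared, and a ratio of at least 2 or at most 1/2 was called. A class at 0 was set to a floor of 3 counts over the class. The calling script was tested on simulated counts with known ratios. Shares of nuclei were also taken after thinning each nucleus to 1000 UMIs, without shallower nuclei. Clusters came from scanpy 1.11.5 (Leiden, igraph 0.11.9). Scrublet's own threshold called no doublet, so doublets were left in and the nuclei with the highest 8% of scores were removed only as an alternative.

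Named were the 15 genes with the interval farthest from 1 in each direction, the 5 highest and 3 lowest of each list, the 10 most counted genes, the rule genes, and Sema3b, Nrp1, Nrp2 and Plxna4. Other genes were named after their values were seen, and some genes that the rule named are not reported here. The members and lists were chosen with earlier results of these data known.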

Additional observations from a re-analysis of the deposited data

How the results depend on the processing

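The members numbered 728 when 3 satellite genes were needed. Genes called higher than in Schwann nuclei numbered 615 of 4605 tested (13.4%) with at least 200 summed UMIs. Genes called lower numbered 1823 of 13506 (13.5%) with at least 20 summed UMIs and 434 of 4605 (9.42%) with at least 200. With nuclei thinned to 1000 UMIs, 546 of 5886 (9.28%) were called lower. The number of genes tested thus changed along with these counts. Every other alternative run kept these counts within 1.5 times. A Leiden resolution of 1 gave 11 sub-clusters. With 3 satellite genes needed, the nerve shares were 1.39%, 0.998%, 0.1549%, 0.05148% and 0.1808% from P0 to P60, and with at least 1000 UMIs the P0 share was 7.691%. Against strict Schwann nuclei the log2 ratio changed sign for 27 genes, of which 7 had been at least 2-fold lower in satellite glia: Cntnap2 (0.26), Cntnap4 (0.70), Ebf1 (0.55), Htr1f (0.17), L1cam (0.75), Nrp1 (1.18) and Opcml (1.34). The strict class leaves out the Schwann nuclei that meet the neuron rule. Of 1823 values of named genes over 10 alternatives, 1596 stayed within the main interval. Of 225 list medians, 25 moved by over 1.5 times and 12 changed sign, for 6 lists. The cell cycle median (0.72) fell to -2.33 with 3 satellite genes needed, -2.62 with at least 200 summed UMIs and -2.75 with thinned nuclei. It also fell to -1.02 with no neuron gene allowed and to -0.11 without the highest 8% of doublet scores. All these medians rest on 7 genes or fewer. The alternative with members of the 2 main library clusters was chosen after seeing the data. No paired analysis was possible because each group has 1 library. With 1 library and 330863 UMIs in the strict Schwann sum, genes under 151.1 CPM there rest on fewer than 50 UMIs, and low ratios are poorly fixed.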
